A study of Homo sapiens with 6 samples.

Results

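The zinc finger genes of human chromosome 19 with a numbered ZNF symbol were followed in a prostate cancer line made to overexpress either of 2 microRNAs. Members were the array probes whose gene name was ZNF followed by a number (and at most 1 letter) and whose deposited hg19 coordinate lay on chromosome 19. This gave 373 probes for 248 genes, of 58201 probes for 43317 gene names on the array. A comparison set of 417 probes for 267 genes carried ZNF names on other chromosomes, and 2136 further probes lay on chromosome 19 in 1709 other genes.

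ZNF genes encode transcription factors built from repeats of the C2H2 zinc finger, a small fold that holds a zinc ion and contacts a few bases of DNA. Many of those on chromosome 19 stand in tandem clusters that grew by duplication, most of them carry a KRAB domain, and KRAB recruits the scaffold protein TRIM28 (KAP1), which brings histone deacetylases, the H3K9 methyltransferase SETDB1 and HP1 proteins to transposable elements and some gene promoters. Neighbouring fingers are joined by a conserved linker with the residues TGEKP, so the coding sequences of different members resemble each other.

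All samples derive from 22RV1, a prostate cancer cell line in long use that the labels describe as SPINK1-positive. Stable lines carried the lentiviral vector pLemiR-338-5p, pLemiR-421 or, as control, pLemiR-RFP, which encodes a red fluorescent protein, and all were grown under puromycin. Total RNA of the miRNA line (Cy5) and of the control line (Cy3) was hybridised together on each of 6 arrays, 3 for miR-338-5p (replicates 1, 2 and 3) and 3 for miR-421 (Pool, 1 and 2), with no dye swap. The labels do not say whether a line was a clone, what the Pool sample combined, or whether the replicates and the control RNA came from separate cultures, so p-values measure the spread between these samples, which may be technical.

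Both comparisons were made against the same control line, and a bias of the control channel or of a dye enters both. Of the markers examined for the line, KLK3, HOXB13, KRT8, KRT18 and SPINK1 had a probe well above background in Cy3 on all 6 arrays. So did VIM, PTPRC and COL1A1, which mark other cell types, while PECAM1 was above background on 0 arrays. The part of such signals in the results was not tested.

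The expressed miRNAs are shown because their seeds (bases 2 to 8, in capitals) are what a target site pairs with. The sequences are RefSeq's, from the minus strand of chromosome 17 and chromosome X (GRCh38.p14).
miR-338-5p: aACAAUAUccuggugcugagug
miR-421: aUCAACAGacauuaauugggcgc
The DNA letters that match the miR-421 seed, CTGTTGA, occurred in 1 of the 373 member probes (0.268%, against 0.558% of all probes). Those for miR-338-5p, ATATTGT, occurred in 2 (0.536%, against 0.478%). The probes cover only 60 bases of a transcript each, and target sites elsewhere in the transcripts were not analysed here.

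The probes of several members lie in the finger coding sequence itself, and the following show how alike they are. Each is the deposited probe, 5′ to 3′, with the letters GAGAAACC in capitals, which in these frames code for the glutamate, lysine and proline of the finger linker. All lie on chromosome 19 (hg19), namely ZNF253 at chr19:20002774-20002833, ZNF85 at chr19:21132382-21132441, ZNF729 at chr19:22499726-22499785 and ZNF433, on the minus strand, at chr19:12125780-12125839.
ZNF253: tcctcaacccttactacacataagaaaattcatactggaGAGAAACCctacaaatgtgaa
ZNF85: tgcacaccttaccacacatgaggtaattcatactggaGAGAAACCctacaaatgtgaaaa
ZNF729: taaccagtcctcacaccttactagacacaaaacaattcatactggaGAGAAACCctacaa
ZNF433: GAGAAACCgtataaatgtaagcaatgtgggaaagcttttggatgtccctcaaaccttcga
ZNF253 and ZNF85 share 50 of 60 aligned bases, and ZNF729 shares 51 with its best match among the members, ZNF99. ZNF433 shares 41 with its best match, ZNF880. GAGAAACC, searched on the probe strand, was present in 19 member probes (5.09%), in 1.68% of ZNF probes of other chromosomes and in 0.18% of all probes.

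Of the 373 member probes, 283 probes of 213 genes were tested, those with a signal in Cy3 or Cy5 well above background on 3 or more of the 6 arrays. Of the 90 left out, 62 were never above background on any array, and 35 genes had no tested probe. In both dyes and on every array, 187 of the tested probes were above background. Since a probe could enter through the control or through the miRNA line alone, the tested probes are not all members. Values are log2 ratios of Cy5 to Cy3, and those below 0 mean less signal from the miRNA line than from control. In RNA from bulk cells, fewer cells that express a gene and less RNA per cell cannot be told apart.

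Under miR-421, signals of the chromosome 19 zinc finger genes were mostly below control. Of the 283 tested probes, 74 fell and 7 rose (limma, Benjamini-Hochberg adjusted p under 0.05 over all probes tested), so 28.6% were called, against 21.6% of all probes tested on the array. The share that fell was 26.1%, against 12.5% of all probes, and the share that rose was 2.47%, against 9.19%. The median log2 ratio over the tested members was -0.15, against 0.00 over all probes, and 220 of the 283 (77.7%) had a mean below 0.

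The direction was shared by every miR-421 array. The members' median was -0.12 in the Pool sample, -0.21 in replicate 1 and -0.14 in replicate 2, and 162 probes (57.2%, against 31% of all probes) were below 0 on all 3. Zinc finger genes of other chromosomes moved the same way, with 62 of 305 probes lower (20.3%), 10 higher and a median of -0.12. The other genes of chromosome 19 ran the opposite way, with 66 of 1389 probes lower (4.75%), 237 higher (17.1%) and a median of 0.09. The differences between these classes are described by their counts and were not tested.

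The number of calls depended on the arrays. Without miR-421 replicate 2, 8 member probes fell and 0 rose, 2.83% called lower against 1.38% of all probes. Leaving out the Pool sample left 31 lower (11%, against 6.64% of all probes) and 2 higher, and leaving out replicate 1 left 27 lower (9.54%, against 6.1%) and 5 higher. Calls in either direction were then close to the share of the array, at 11.7% of members against 12.4% of all probes without the Pool sample, 11.3% against 10.8% without replicate 1 and 2.83% against 2.29% without replicate 2. The size of the shift depended on the background correction. The members' median was -0.47 with plain background subtraction, -0.50 with the image software's own ratio and -0.49 in the authors' table, against -0.15 with the offset used here, and the members called lower were 27.9%, 27.9% and 30.5% of those tested, against 11.3%, 10.4% and 10.3% of all probes.

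**Figure D1:**
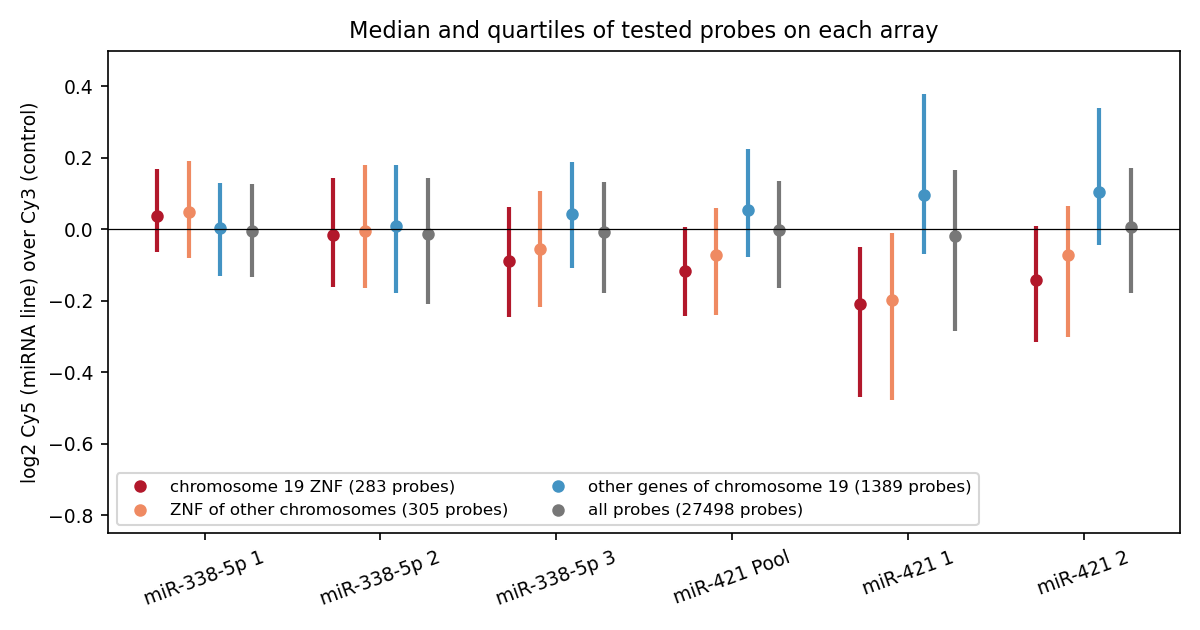
Median (point) and quartiles (line) of the log2 ratio of Cy5 (miRNA line) over Cy3 (control) on each of the 6 arrays, for tested probes of chromosome 19 ZNF genes, ZNF genes of other chromosomes, other genes of chromosome 19 and all probes. On the 3 miR-421 arrays the chromosome 19 ZNF medians lie at -0.12, -0.21 and -0.14, below those of all probes, and the other genes of chromosome 19 lie above 0.

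Among the members named by size, the 6 largest falls under miR-421 were those of ZNF569, ZNF254, ZNF573, ZNF302, ZNF765 and ZNF714, all of them KRAB zinc finger genes. ZNF569 (NM_152484; probe at chr19:37902079-37902138, minus strand, hg19) gave -1.28 in the Pool sample, -1.14 in replicate 1 and -1.54 in replicate 2. Its mean was -1.32 ± 0.20 (SD, n = 3; adjusted p = 0.0033 by limma). That corresponds to 40.1% of the control signal. Under miR-338-5p the same probe gave 0.11, -0.24 and -0.33 (adjusted p = 0.46), so the arrays of the lines did not overlap.

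ZNF254 (NM_203282; chr19:24309844-24309903, plus strand) gave -1.03 in the Pool sample, -1.40 in replicate 1 and -1.04 in replicate 2, averaging -1.16 ± 0.21 (SD, n = 3; adjusted p = 0.013 by limma). ZNF714 (NM_182515; chr19:21300714-21300773, plus strand) gave -0.99, -1.25 and -0.89, averaging -1.04 ± 0.18 (SD, n = 3; adjusted p = 0.016 by limma). Both genes stand in the cluster of the short arm next to the centromere. Under miR-338-5p both were spread widely, from 0.10 in replicate 1 to -0.89 in replicate 3 for ZNF254 and from 0.17 to -0.80 for ZNF714, with no call.

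ZNF302 (NM_018675; chr19:35174914-35174973, plus strand) gave -0.99, -1.14 and -1.12, averaging -1.08 ± 0.08 (SD, n = 3; adjusted p = 0.0051 by limma) with the narrowest spread of the 6. ZNF765 (NM_001040185; chr19:53915117-53915176, plus strand) gave -0.83, -1.33 and -1.05 (mean -1.07 ± 0.25, SD, n = 3; limma adjusted p = 0.0055). ZNF573 (NM_152360; chr19:38229255-38229314, minus strand) gave -0.74, -1.67 and -0.89, with replicate 1 standing apart (mean -1.10 ± 0.50, SD, n = 3; limma adjusted p = 0.015). All 3 also had negative ratios on every miR-338-5p array. A dimmer ZNF302 probe also fell under miR-421 (-0.59), while a dimmer ZNF714 probe gave -0.18 with no call.

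ZNF569, ZNF302 and ZNF765 kept their miR-421 call with each of the 6 arrays left out, the highest adjusted p being 0.036, 0.048 and 0.049. ZNF573 lost it without miR-421 replicate 2 (adjusted p = 0.066). ZNF254 lost it without replicate 1 (0.0504) or replicate 2 (0.069). ZNF714 lost it without the Pool sample (0.053), replicate 1 (0.060) or replicate 2 (0.072), and its mean stayed between -1.12 and -0.94.

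Rises under miR-421 were few and lay mainly near the long-arm end. ZNF446 (NM_017908; chr19:58992532-58992591, plus strand), which encodes a protein with SCAN, KRAB and finger domains, gave 0.80 in the Pool sample, 0.24 in replicate 1 and 0.83 in replicate 2 (mean 0.62 ± 0.33, SD, n = 3; limma adjusted p = 0.034). ZNF580 (NM_016202; chr19:56154712-56154771), a short finger protein without KRAB, gave 0.44, 0.36 and 0.48 (mean 0.42 ± 0.06, SD, n = 3; limma adjusted p = 0.024). ZNF71 (NM_021216; chr19:57134699-57134758) gave 0.29, 0.48 and 0.39 (mean 0.39 ± 0.09, SD, n = 3; limma adjusted p = 0.032). All 3 were above 0 on all 6 arrays of the study.

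The other 4 rises were those of ZNF329 (mean 0.63), ZNF524 (0.40), ZNF414 (0.30) and ZNF628 (0.27). Another probe of ZNF329 had a miR-421 mean that was -0.12 with no call, and the call of the brighter probe was lost in the authors' table, where the gene's ratio was 0.20. Each of the 6 rises named by size (ZNF446, ZNF580, ZNF71, ZNF329, ZNF524 and ZNF414) lost its call when at least 1 array was left out. Without miR-421 replicate 2 their adjusted p lay between 0.117 and 0.192, and none changed sign with any of the 6 arrays left out.

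**Figure D2:**
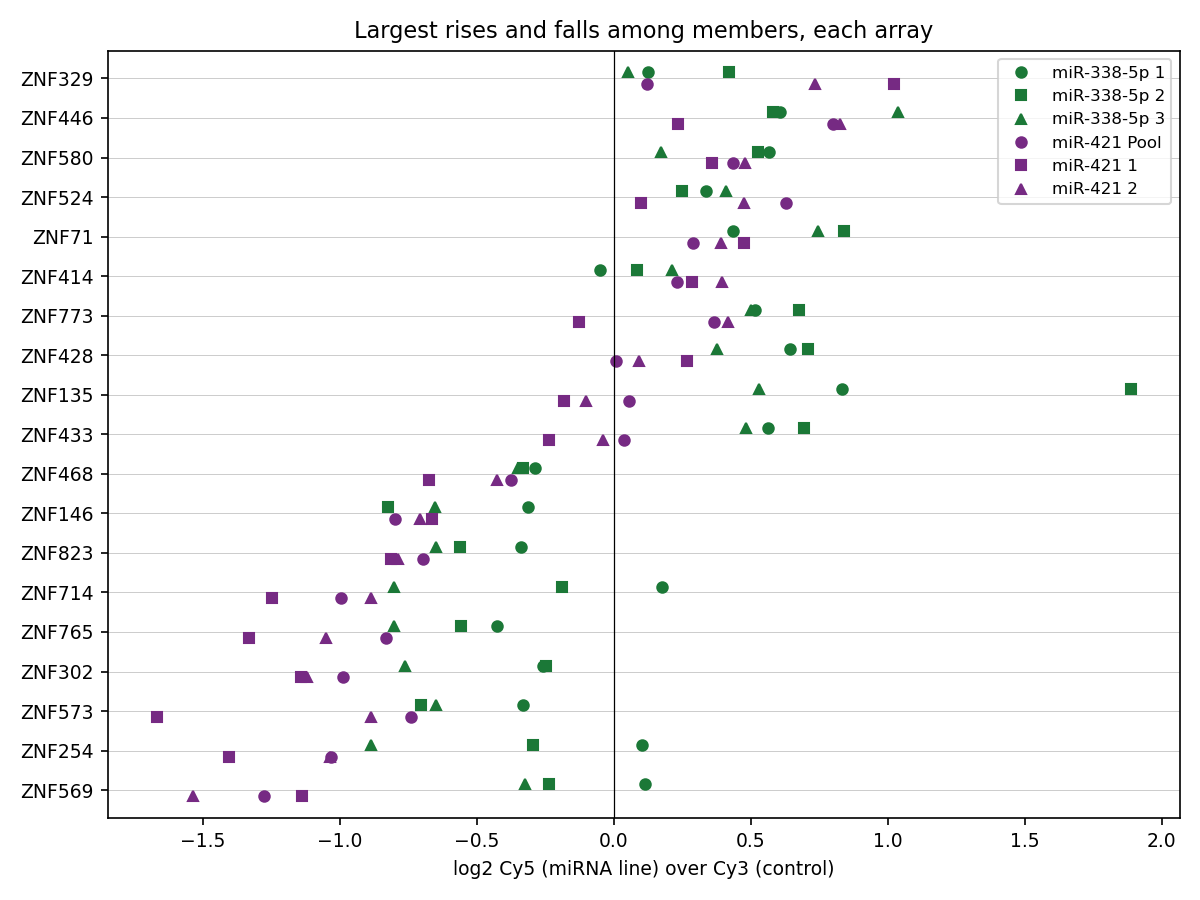
Log2 Cy5 over Cy3 on each array (circles, squares and triangles) of the members with the largest called rises and falls in either line, each by its brightest tested probe and ordered by the miR-421 mean. ZNF569 lies between -1.54 and -1.14 on the miR-421 arrays and between -0.33 and 0.11 on the miR-338-5p arrays, without overlap.

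Under miR-338-5p fewer members were called, and most of those rose. Of the 283 probes 12 rose and 4 fell, 5.65% in all, against 9% of all probes, so the members' share was below that of the array. The rises were 4.24% of members, against 3.79% of all probes, and the falls 1.41%, against 5.22%. The median was -0.02, with array medians of 0.04 in replicate 1, -0.01 in replicate 2 and -0.09 in replicate 3. Zinc finger genes of other chromosomes had 11 higher and 12 lower of 305 and a median of 0.00.

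The split of higher and lower calls under miR-338-5p changed with the scaling. With median centring in place of loess 1 member probe rose and 5 fell, and both the image software's ratio and the authors' table gave 5 rises and 0 falls. The members called were 2.12% with median centring, 1.77% with the software's ratio and 2.35% in the authors' table, against 4.67%, 3.97% and 4.54% of all probes. No probe was called (0 higher, 0 lower) without miR-338-5p replicate 2, where 46 had an unadjusted p under 0.05 by limma, or with the 3 miR-338-5p arrays fitted alone, where 65 did. Of all probes 2.11% and 0.778% were called in these 2 settings. Without replicate 1 there were 1 higher and 3 lower, without replicate 3 there were 4 higher and 0 lower, and without the miR-421 Pool sample, replicate 1 or replicate 2, which enter the estimate of the spread, 7, 29 and 3 probes were called. The 7, 29 and 3 calls were 2.47%, 10.2% and 1.06% of members, against 4.2%, 13.3% and 2.73% of all probes. Without miR-338-5p replicate 1 or 3, 1.41% of members were called each time, against 2.07% and 1.45% of all probes.

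The largest rise under miR-338-5p was that of ZNF135 (NM_003436; chr19:58580414-58580473), a KRAB zinc finger gene near the long-arm end. It gave 0.83 in replicate 1, 1.89 in replicate 2 and 0.53 in replicate 3, averaging 1.08 ± 0.71 (SD, n = 3; adjusted p = 0.049 by limma), with replicate 2 far above the others. The call was lost with any array left out (adjusted p from 0.051 to 0.113). Under miR-421 it gave 0.05, -0.18 and -0.10.

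ZNF446 also rose under miR-338-5p, with 0.61, 0.58 and 1.04 (mean 0.74 ± 0.26, SD, n = 3; limma adjusted p = 0.037), as did ZNF71, with 0.44, 0.84 and 0.74 (mean 0.67 ± 0.21, SD, n = 3; limma adjusted p = 0.016). ZNF433, whose finger probe is printed above, gave 0.56, 0.69 and 0.48 (mean 0.58 ± 0.11, SD, n = 3; limma adjusted p = 0.014), and under miR-421 it gave 0.04, -0.24 and -0.04. ZNF433 was therefore higher on every miR-338-5p array than on any miR-421 array. The means of ZNF428 and ZNF773 were 0.58 and 0.56.

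Falls under miR-338-5p were those of ZNF146, ZNF765, ZNF823 and ZNF468. ZNF146 (OZF; NM_007145; chr19:36728855-36728914), a protein made of fingers with no KRAB, gave -0.31, -0.82 and -0.65 (mean -0.60 ± 0.26, SD, n = 3; limma adjusted p = 0.025). ZNF823 (NM_001080493; chr19:11832404-11832463) gave -0.34, -0.56 and -0.65 (mean -0.52 ± 0.16, SD, n = 3; limma adjusted p = 0.018). The means of ZNF765 and ZNF468 were -0.60 and -0.32. All 4 genes also passed the test as falls under miR-421, with means of -0.72 (ZNF146), -0.77 (ZNF823), -1.07 (ZNF765) and -0.49 (ZNF468), and the comparisons share their control.

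Each of the 10 called changes named for miR-338-5p was lost when at least 1 array was left out, with adjusted p of up to 0.142 among the rises (ZNF773, without replicate 2) and up to 0.163 among the falls (ZNF468, without replicate 3). None of the 10 changed sign with any of the 6 arrays left out.

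The lines were then compared with each other, where a dye bias or a control level common to the arrays cancels. The control channel itself differed between the arrays of the lines. In Cy3, 47.3% to 47.9% of gene spots were well above background on the miR-338-5p arrays and 44.3% to 44.4% on the miR-421 arrays. The part of this in the differences was not tested. No member passed the test (0 of 283, limma, adjusted p under 0.05), against 0.0473% of all probes (0.0109% higher and 0.0364% lower under miR-338-5p). An unadjusted p under 0.05 (limma) was found for 72 of the 283 member probes, against 3753 of all 27489 probes. The members' median difference, miR-338-5p minus miR-421, was 0.15, against 0.01 over all probes. For 95 of the 282 members measured on all 6 arrays (33.7%) every miR-338-5p array lay above every miR-421 array, against 10.1% of all probes, and for 4 (1.42%) every one lay below, against 9.73%.

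ZNF genes of other chromosomes had 72 of 305 probes (23.6%) with all miR-338-5p arrays above, and 265 of 1382 probes (19.2%) of the other chromosome 19 genes had them all below. The largest differences whose arrays did not overlap, none of them called, were those of ZNF569 (1.17, limma adjusted p = 0.077), ZNF135 (1.16, 0.25) and ZNF254 (0.80, 0.28) above, and of ZNF628 (-0.26, 0.26), ZNF414 (-0.22, 0.39) and ZNF90 (-0.22, 0.35) below. ZNF569 passed under 1 alternative, without background correction, with a difference of 1.51 (adjusted p = 0.042).

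By position, the members formed 16 groups when neighbours more than 1 Mb apart were separated, numbered from the short-arm end, and 8 of these held at least 5 tested genes. In all 8 the median of the tested probes under miR-421 was below 0, and it was below 0 in all 9 such groups when the gap was set to 0.5 Mb. The group next to the centromere on the short arm (cluster 5, from 19.79 to 24.31 Mb on hg19, 30 tested genes), which holds many primate-specific KRAB genes, had the lowest. Of its 42 tested probes 20 fell and 0 rose under miR-421 (47.6% called lower, against 12.5% of all probes), the median was -0.33, and 39 of 42 were below 0.

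The array medians of cluster 5 were -0.28 in the Pool sample, -0.26 in replicate 1 and -0.44 in replicate 2. Under miR-338-5p they were 0.04, -0.10 and -0.28, so replicate 3 lay within the miR-421 range. No probe of the cluster was called under miR-338-5p (0 higher, 0 lower), against 9% of all probes. Of its 42 tested probes 4 had an unadjusted p under 0.05 (limma), against 7479 of all 27501 probes. The 20 probes that fell include those of ZNF254, ZNF714, ZNF738 (-0.94), ZNF253, ZNF100 (-0.86), ZNF675 (-0.86) and ZNF429 (-0.84), and range up to that of ZNF91 (-0.21), a repressor of SVA retrotransposons. The 29 tested probes of other genes inside the cluster's span had a miR-421 median of 0.00, with 1 lower and 2 higher, and a median GC share of 45%, against 38.3% for the cluster's members. The brightest probe of the cluster, in ZNF90, lay above 0, with 0.18, 0.26 and 0.17 under miR-421 (mean 0.20, adjusted p = 0.060).

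Cluster 9 (36.67 to 38.23 Mb on the long arm, 22 tested genes, with ZNF146, ZNF569 and ZNF573) had all 30 tested probes below 0 under miR-421, 11 of them called, and a median of -0.23. In cluster 3 (11.60 to 12.74 Mb, with ZNF823, ZNF433 and ZNF799) 10 of 29 probes fell and 0 rose, with a median of -0.23. In cluster 15 (52.09 to 54.08 Mb, with ZNF468 and ZNF765) 16 of 49 fell and 0 rose, with a median of -0.16. In cluster 12 (44.04 to 45.58 Mb) 3 of 27 fell, with a median of -0.12. The shares lower were 36.7% in cluster 9, 34.5% in cluster 3 and 32.7% in cluster 15, against 12.5% of all probes. In cluster 12 the share was 11.1%, below that of the array. The genes with the brightest probe of clusters 2, 3, 15 and 16, ZNF561, ZNF763, ZNF766 and ZNF865, were not called in either line, with miR-421 means of -0.34, -0.39, -0.25 and 0.04.

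Cluster 16, at the long-arm end (56.00 to 58.99 Mb, 53 tested genes), held both rises and falls. Under miR-421 6 of its 68 probes fell and 6 rose, 8.82% each way, against 12.5% and 9.19% of all probes, with a median of -0.05. Its difference from the other clusters was not tested. It held 6 of the 7 members that rose under miR-421, the exception being ZNF414 in cluster 2. Under miR-338-5p 8 of its probes rose and 0 fell (11.8%, against 3.79% of all probes), namely ZNF580, ZNF71, ZNF419, ZNF773, ZNF416, ZNF134, ZNF135 and ZNF446, each above 0 on all 3 arrays. Its miR-338-5p median was 0.07, with array medians of 0.06, 0.13 and 0.08. The other genes inside the cluster's span also had rises and no falls under miR-338-5p. Of their 55 tested probes 5 rose and 0 fell, with a median of 0.03. Under miR-421 8 of these 55 rose and 2 fell, with a median of 0.02. Whether the members differed from these neighbours was not tested.

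**Figure D3:**
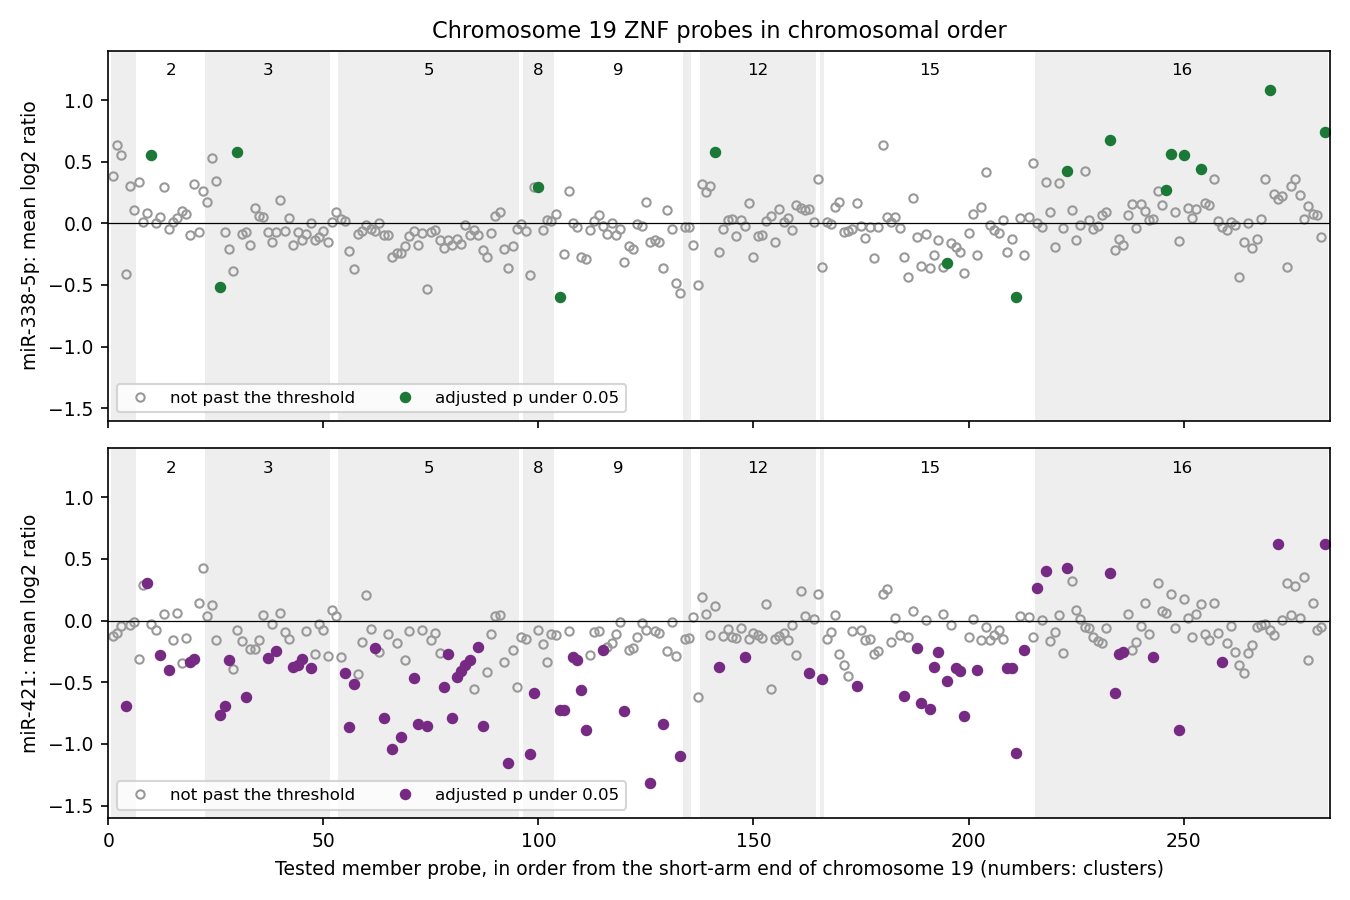
Mean log2 ratio (n = 3 arrays) of each of the 283 tested probes in chromosomal order, with miR-338-5p above and miR-421 below. Filled points passed an adjusted p of 0.05 and shaded bands separate the clusters, those with at least 7 probes numbered. The miR-421 calls lie mostly below 0 from cluster 3 to cluster 15, and the miR-338-5p calls above 0 gather in cluster 16.

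**Figure D4:**
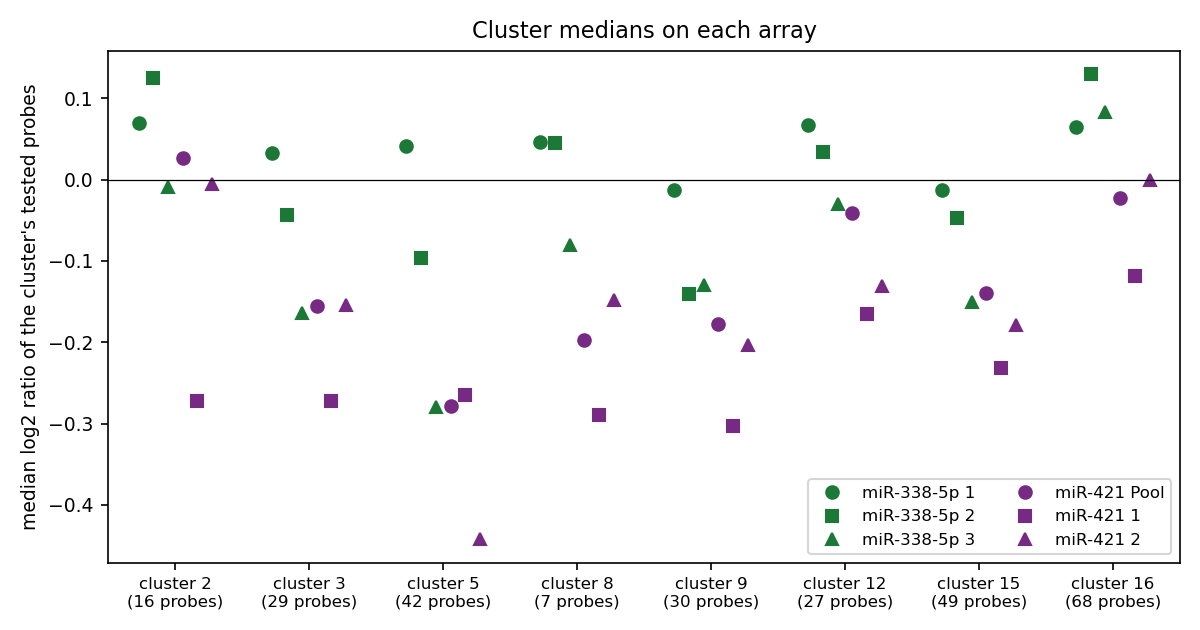
Median log2 ratio over the tested probes of each cluster with at least 5 tested genes, 1 symbol per array. Cluster 5 reached -0.44 on miR-421 replicate 2, and cluster 16 lay at 0.06, 0.13 and 0.08 on the miR-338-5p arrays.

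The share of members called was higher among brighter spots, brightness being the mean log2 intensity over both dyes and all arrays. Brightness was divided into tertiles over all tested probes, at 6.32 and 7.83. Members were 98 in the dimmest, 143 in the middle and 42 in the brightest tertile. Under miR-421, 11.2%, 35% and 47.6% of them were called, against 5.58%, 25.1% and 34.2% of all probes in the same tertiles. The called falls were 11, 49 and 14, and the rises 0, 1 and 6, so most rises came from the bright probes.

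The members' probes also differed in base composition. Their median GC share was 40%, against 45% over all tested probes and 50% in the other chromosome 19 genes, and ratios under miR-421 moved with GC on the whole array. In the tertile of lowest GC 35.3% of 150 member probes fell under miR-421, against 19.6% of the 9502 probes that carry no ZNF name. In the middle tertile 19.8% of 101 fell, against 13%, and in the highest 3.12% of 32 fell, against 3.03%. The part of GC in the members' shift was not tested.

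After a curve of each array's ratio on GC was removed, a step chosen after seeing the data, 52 member probes fell and 6 rose under miR-421 (18.4% lower, against 10.6% of all probes) and the median was -0.08. ZNF genes of other chromosomes then had 44 of 305 lower (14.4%). Cluster 5 then had 15 falls, 1 rise and a median of -0.27, and cluster 9 had 11 falls and a median of -0.17. Cluster 3 had 5 falls in place of 10 and a median of -0.13, and cluster 15 had 12 in place of 16 and a median of -0.11. The median of cluster 16 under miR-421 turned to 0.02. Calls in either direction were 20.5% of members and 20.2% of all probes under miR-421. Under miR-338-5p 17 members rose and 6 fell in that setting, 8.13% in all, against 10.2% of all probes.

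**Figure D5:**
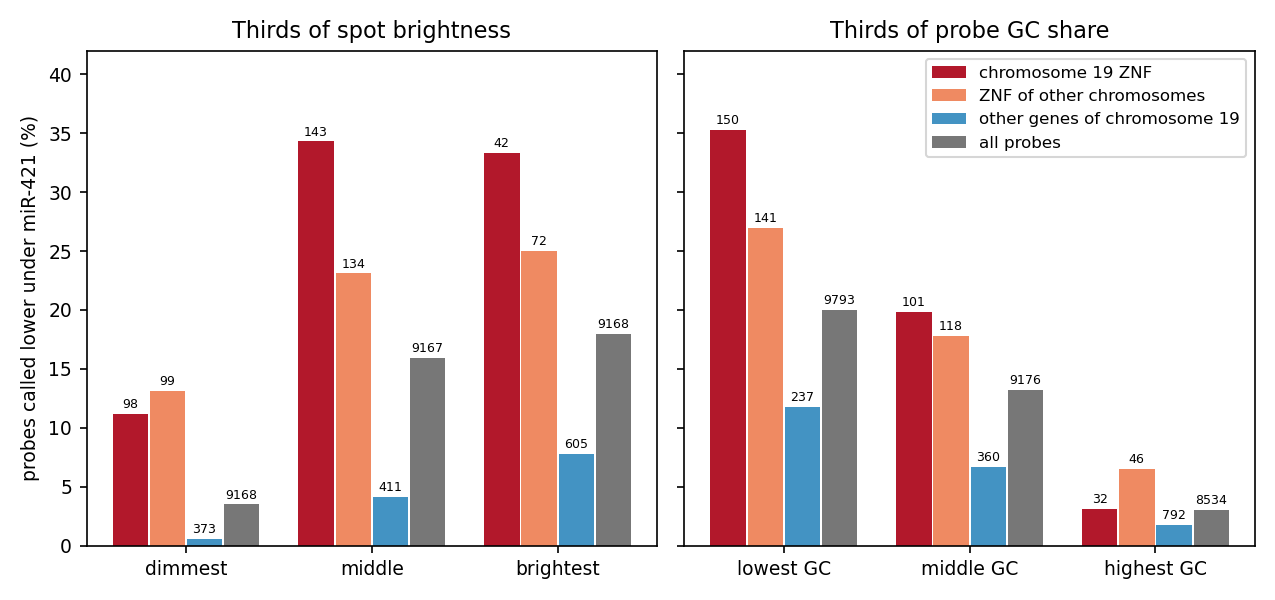
Share of tested probes called lower under miR-421, by tertile of spot brightness (left) and of the probe's GC share (right), for chromosome 19 ZNF genes, ZNF genes of other chromosomes, other genes of chromosome 19 and all probes, with the number of probes above each bar. In the tertile of lowest GC the share is 35.3% for chromosome 19 ZNF probes, and in the highest it is 3.12%.

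Members were also sorted by how far their probe resembles that of another member gene. Of the tested probes, 29 matched a probe of another member gene at 45 or more of 60 bases. Some of the 29 also carry the linker letters GAGAAACC or lie in cluster 5. Under miR-421 all 29 had a mean below 0, 17 of them (58.6%, against 12.5% of all probes) fell, and their median was -0.36. Of the 199 that matched fewer than 36 bases, 44 (22.1%) fell, with a median of -0.12. The difference between these groups was not tested. Whether such probes also bound RNA of the related genes was not tested, and 0 tested member probes matched another member's at 54 or more bases.

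The finger linker was counted in the same way. Of the 15 tested probes with GAGAAACC, 9 (60%) fell under miR-421 and 0 rose, with a median of -0.36, and 65 of the 268 others (24.3%) fell. Of all probes 12.5% fell and 9.19% rose. This set overlaps those above. Among its falls, ZNF253, ZNF85, ZNF729, ZNF493, ZNF99, ZNF600 and ZNF799 also matched another member at 45 or more bases. The first 5 of these lie in cluster 5. ZNF253 gave -0.78 in the Pool sample, -1.01 in replicate 1 and -0.80 in replicate 2 (limma adjusted p = 0.025), ZNF85 gave -0.78, -0.89 and -0.72 (adjusted p = 0.018), and ZNF729 gave -0.77, -0.81 and -0.80 (adjusted p = 0.0097). Under miR-338-5p their means were -0.23, -0.09 and -0.17, none called. ZNF433, whose probe starts with the same letters and differs in the rest, rose under miR-338-5p instead.

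Probes of the same gene did not always agree. Of the 61 member genes with at least 2 tested probes, 43 had means of 1 sign under miR-421 and 37 under miR-338-5p, and the median range between probes of a gene was 0.24 and 0.12. The range exceeded 1 in 2 genes under miR-421. ZNF569 had -1.32 on the probe given above and -0.08 on a probe at chr19:37957986-37958045, with a GC share of 63.3%. In ZNF254 the 5 probes ran from -1.16 to 0.04. ZNF587, whose probe was printed in 10 spots, had a spot-to-spot SD of 0.04 to 0.09 within an array, while its array means were spread between -0.73 and -0.12 for miR-421 and between -0.54 and -0.27 for miR-338-5p.

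Promoters were examined because neighbouring members fell together under miR-421. RefSeq promoters (GRCh38.p14, 250 bases before to 50 after the gene start, 300 in all) were found for 210 of the 248 member genes. On either strand, the ETS motif CCGGAAG was present in 44.8% of them, against 35.4% for ZNF genes of other chromosomes and 10.7% of all 27305 RefSeq promoters. The SP motif GGGCGGG was present in 51.4%, against 40.2% and 32.9%, the YY1 motif ATGGCG in 19%, against 16.7% and 11%, and TATAAA in 1.9%, against 4.31% and 12%. Of the 51 matched genes whose brightest probe fell under miR-421, 47.1% held CCGGAAG and 60.8% GGGCGGG, against 45.9% and 46.6% of the 133 that were tested and did not fall.

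The 250 bases before the start of ZNF254 (chr19:24086937-24087186, plus strand, GRCh38.p14) and of ZNF714 (chr19:21081953-21082202, plus strand) are shown as a pair from the same cluster that has long runs in common. Capitals mark the runs of at least 12 bases that the pair has in common, 67 bases in each.
ZNF254: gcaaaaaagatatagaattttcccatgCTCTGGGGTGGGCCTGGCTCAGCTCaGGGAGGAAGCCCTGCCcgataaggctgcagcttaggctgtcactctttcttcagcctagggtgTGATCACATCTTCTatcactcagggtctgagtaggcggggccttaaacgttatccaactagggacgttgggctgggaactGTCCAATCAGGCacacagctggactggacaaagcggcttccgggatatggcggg
ZNF714: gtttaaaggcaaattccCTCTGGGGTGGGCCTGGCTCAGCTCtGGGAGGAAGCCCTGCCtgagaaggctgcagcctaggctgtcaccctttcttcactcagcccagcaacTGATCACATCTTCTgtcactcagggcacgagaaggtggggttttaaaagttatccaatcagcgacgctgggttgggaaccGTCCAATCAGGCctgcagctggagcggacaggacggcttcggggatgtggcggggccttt
The longest run, CTCTGGGGTGGGCCTGGCTCAGCTC, of 25 bases, was picked after the values had been seen. It occurred in 6 of the 26 matched promoters of cluster 5 (ZNF208, ZNF254, ZNF430, ZNF626, ZNF714 and ZNF737) and in 0 other of the 27305 RefSeq promoters. By their brightest probes, 3 of these 6 genes fell under miR-421, with a median of -0.24, and 14 of the 24 tested genes of cluster 5 without the run fell, with a median of -0.42. These were 50% and 58.3%, against 12.6% of all genes by brightest probe. The carriers ZNF254 and ZNF714 had the largest falls of the cluster, and the run had been found in their promoters.

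The genes that KRAB zinc finger proteins work through were read from a list of 44, of which 43 were tested by their brightest probe. Under miR-421 0 rose and 13 fell, and their median was -0.34. By brightest probe, 12.6% of all genes tested fell and 10% rose under miR-421, and 5.26% fell and 3.99% rose under miR-338-5p. Many of the partners' probes were bright. In the brightest tertile 18% of all probes fell under miR-421 and 7.24% under miR-338-5p. Under miR-338-5p 0 rose and 6 fell, among them HDAC1, UHRF1, HELLS, PPHLN1 and SUMO2, and the median was -0.27. TRIM28, the KRAB corepressor itself, gave -0.03, -0.10 and 0.19 under miR-421 and -0.32, 0.63 and -0.05 under miR-338-5p, with no call in either line (limma adjusted p = 0.95 and 0.81).

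Among the larger changes of these partners under miR-421 were the falls of TRIM33 (-1.20, -2.02 and -1.68; adjusted p = 0.0057), a TRIM28 relative, and of KIAA1551 (RESF1; -0.91, -1.58 and -1.21; adjusted p = 0.012), a SETDB1 partner. CBX3 (HP1 gamma) gave -0.89, -0.97 and -1.26 (limma adjusted p = 0.0040). SMARCAD1, a chromatin remodeller, had a mean of -0.90, and SUMO2 one of -0.74. SETDB1 itself had a mean of -0.15, with no call.

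Finger genes of chromosome 19 outside the ZNF names (ZSCAN, ZFP, ZIK and ZBTB genes, 13 tested of 17) showed 1 rise and 0 falls in each line. These genes were taken by name alone, ZFP36 among them, and their type of finger was not checked. By brightest probe, 3.99% of all genes rose and 5.26% fell under miR-338-5p, and 10% rose and 12.6% fell under miR-421. With 13 genes, such counts cannot be told from the shares of the array. ZSCAN18 rose under miR-338-5p, with 1.51, 2.56 and 1.08 (limma adjusted p = 0.033), and ZSCAN5B rose under miR-421 by 0.30 (adjusted p = 0.026). The median of the 13 genes under miR-421 was 0.00, against -0.15 for the ZNF members. The probes of ZBTB32, ZBTB7A, ZFP14, ZFP82, ZSCAN1, ZSCAN22 and ZSCAN5B lay in the dimmest tertile of brightness, below 6.32. Of the member probes 34.6% did. The offset pulls ratios of dim probes towards 0, so the medians are not directly comparable. ZFP82, ZFP14 and ZFP30 had miR-421 means of -0.11, -0.10 and -0.32, none called.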

How the data were processed

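RNA of 6 samples was read on 2-colour Agilent arrays, after poly(A) tailing and oligo-dT labelling per the labels' protocols. Per the file headers, the deposited intensity values were spot means and local background medians from Feature Extraction, not normalized. The deposited log10 ratio was computed by that software after background and dye correction, per the file headers, and the deposited log2 table of the series, whose normalization is not given in the sources used here, correlated with it at 0.972 to 0.980 in the same direction. Both served as alternatives.

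Spots were corrected by normexp (offset 50) and normalized by loess within arrays, outlier spots were left out and spots of a probe averaged. A probe was kept where Cy3 or Cy5 was well above background on 3 or more of the 6 arrays, 27503 in all. With R 4.3.3 and limma 3.58.1, 1 fit of a mean per line, moderated by eBayes, gave two-sided tests with Benjamini-Hochberg adjustment over all probes at 0.05. The fit was tested on simulated data. The offset pulls ratios of dim probes towards 0. In Cy3, 47.3% to 47.9% of gene spots were well above background on the miR-338-5p arrays and 44.3% to 44.4% on the miR-421 arrays. In Cy5 the share was 41.9% on miR-421 replicate 1 and 46.8% to 48.3% on the other arrays. The number of arrays limits the precision.

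Each gene was named by its brightest tested probe: per line up to 6 largest rises and 6 largest falls past the threshold with 1 sign on all 3 arrays, for the difference the 3 largest in each direction without overlap, the brightest gene of a cluster, genes whose probes differ by over 1, and up to 6 partners with TRIM28. Genes named beside these were chosen after their values were seen. Members and lists were chosen with earlier results of these data known. Protein sequences, exon positions and UTRs were not used here, so planned counts of fingers and KRAB domains were not run. Single values of some listed genes are not reported here.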

Additional observations from a re-analysis of the deposited data

Results flagged for a closer look

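For 8 tested member probes every miR-338-5p array was above 0 and every miR-421 array below 0, and for 1 probe the reverse held. By limma none of these differences passed after adjustment. The differences (miR-338-5p minus miR-421, log2) were 0.74 for ZNF555 (adjusted p = 0.31), 0.63 for ZNF562 (0.13), 0.50 for ZNF833P (0.21), 0.44 for ZNF613 (0.24), 0.40 for ZNF543 (0.26), 0.36 for ZNF329 (0.25), 0.29 for ZNF160 (0.24) and 0.27 for ZNF211 (0.21). The ZNF329 probe here is the dimmer one, with a miR-421 mean of -0.12, while the brighter ZNF329 probe was called as a rise of 0.63. A further ZNF562 probe ran the opposite way, with a difference of -0.21 (0.39).

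ZNF562 thus had probes in both groups. Its probe A_33_P3398091 gave 0.23 to 0.48 under miR-338-5p and -0.44 to -0.15 under miR-421, and A_33_P3258320 gave -0.08 to -0.06 and 0.05 to 0.30. Over the whole array 432 tested probes (1.57%) had positive ratios throughout miR-338-5p and negative ones throughout miR-421. The groups of 3 arrays were too small to test single arrays as outliers.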

How the results depend on the processing

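Of 20 alternatives, 19 were planned and 1 (GC curve removed) was chosen after seeing the data. For miR-338-5p the 16 called members became 6 with median centring, 10 with background subtraction, 5 with the ratio of the image software, 5 for the authors' values, 9 without a filter, 27 with trended robust variance, 0 with its own arrays only, and 0 to 29 with an array left out. Members called were 3.53% with subtraction, 2.41% without a filter and 9.54% with trended variance, against 5.74%, 2.73% and 12.5% of all probes. The members' median was -0.11 with median centring. For miR-421 the 81 calls stayed within 1.5 times except for arrays left out (8 to 70). Its median was -0.28 without background correction, -0.47 with subtraction, -0.50 with the software's ratio, -0.49 in the authors' table, -0.086 without a filter and -0.076 with the GC curve removed. The difference had 1 call without background correction, and its median was 0.29 there, 0.51 with subtraction, 0.54 with the software's ratio and 0.51 in the authors' table. The causes were not tested, and each median kept its sign except that of miR-338-5p, which was 0.01 without replicate 3 and 0.00 with the GC curve removed.

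Of the 22 calls of named genes, 0 reversed and 3 (ZNF569, ZNF302 and ZNF765 under miR-421) were kept under every alternative. Replicate numbers 1 and 2 are common to the lines, and the labels do not say whether they pair the samples. Deviations of same-numbered arrays from their line means correlated at -0.14 and -0.21, which cannot settle it with 3 arrays per line. With the number as a replicate block, 21, 80 and 0 members were called for miR-338-5p, miR-421 and the difference, with medians of -0.03, -0.14 and 0.14.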
